A study of Homo sapiens with 24 samples.

Results

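The genes described here are 10 members of the S100 family of calcium-binding proteins, *S100A2*, *S100A3*, *S100A4*, *S100A5*, *S100A6*, *S100A10*, *S100A11*, *S100A13*, *S100A16* and *S100B*, measured in glioblastoma cells exposed to G-1. The array carried 11 probes for these genes, found through the RefSeq transcript that names each probe, with 2 probes for *S100A11*. All 10 genes were among the 14235 genes with a symbol that could be tested. The probes belonged to 22970 tested probes of 58118 with values. *S100A5* was picked by its low signal after G-1 1 µM for 24 h, so its values in that group are given as a description without a test. The other members were listed with earlier results of these data known.

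The cells were U251, an established human glioblastoma line, and all groups were kept without steroid hormones in charcoal-stripped serum before exposure. G-1 is a synthetic agonist of the G protein-coupled estrogen receptor GPER1. The 6 groups were the DMSO vehicle (0.1% by the labels), G-1 at the inhibitory concentration IC50 determined for these cells, and G-1 1 µM, each for 24 h and for 72 h, with 4 independent biological replicates per group. Groups follow the sample titles. For the arrays titled G-1 1 µM 72 h the separate duration entry reads 24 h, and for those titled G-1 IC50 24 h it reads 72 h, so values at these durations and the interactions rest on the titles. The study asked how the transcriptome of these cells depends on the dose and on the duration of G-1.

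S100 proteins are small proteins with 2 calcium-binding loops of the EF-hand type, and most of them work as dimers that bind a target protein once calcium has changed their shape. Inside cells they act on annexins, myosin, p53 and co-chaperones, and several are released and bind the receptors AGER (RAGE) and TLR4. In the nervous system *S100B* is best known as a product of astrocytes, and it is kept by many astrocytic tumours. Most *S100A* genes lie side by side on the long arm of chromosome 1, whereas *S100B* is on chromosome 21.

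In the RefSeq gene order on chromosome 1, the members follow each other as *S100A10*, *S100A11*, *S100A6*, *S100A5*, *S100A4*, *S100A3*, *S100A2*, *S100A16* and *S100A13*. The annotated spans of *S100A5* and *S100A4* overlap. The neighbours *S100A4*, *S100A3* and *S100A2* all fell with time in DMSO and were higher in G-1 1 µM than in DMSO at 72 h, while *S100A5* was lower there and *S100A6* was not called. For this reason the 120 bases before the outermost annotated start of 4 of these 5 genes are shown. For *S100A5* the bases before 2 annotated starts, named first and second here, are shown. Neither is the outermost start of *S100A5*, whose window is not shown. They come from RefSeq on GRCh38.p14, all on the minus strand, and are written from 5′ to 3′ with the transcription start just after the last base. Capitals mark matches on either strand to the TATA box letters TATAAA, to the AP-1 core letters TGANTCA and to the GC box letters GGGCGG. Overlapping matches run together.
S100A2, chr1:153565845-153565964: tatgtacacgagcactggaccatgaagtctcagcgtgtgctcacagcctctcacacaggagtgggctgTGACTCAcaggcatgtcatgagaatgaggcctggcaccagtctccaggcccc
S100A3, chr1:153549259-153549378: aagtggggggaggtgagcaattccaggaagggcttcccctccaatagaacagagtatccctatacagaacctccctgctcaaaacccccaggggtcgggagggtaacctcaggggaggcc
S100A4, chr1:153545807-153545926: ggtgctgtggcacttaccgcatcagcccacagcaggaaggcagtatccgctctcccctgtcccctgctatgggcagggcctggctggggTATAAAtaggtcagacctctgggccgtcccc
S100A5, first start, chr1:153541810-153541929: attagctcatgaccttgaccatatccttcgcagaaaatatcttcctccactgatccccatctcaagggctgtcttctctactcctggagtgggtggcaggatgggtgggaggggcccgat
S100A5, second start, chr1:153540935-153541054: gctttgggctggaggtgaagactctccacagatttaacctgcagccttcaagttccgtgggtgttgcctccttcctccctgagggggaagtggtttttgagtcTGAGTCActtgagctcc
S100A6, chr1:153535992-153536111: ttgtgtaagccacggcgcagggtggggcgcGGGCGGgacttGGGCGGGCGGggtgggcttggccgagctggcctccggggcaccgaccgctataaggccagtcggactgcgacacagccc

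*S100A2*, *S100A3* and *S100A4* shared none of these motifs. The *S100A2* window held 1 TGANTCA, the *S100A4* window 1 TATAAA, and the *S100A3* window none of these motifs. The second start of *S100A5* also held 1 TGANTCA, and the *S100A6* window held 3 GGGCGG. Over all 34943 RefSeq windows of this length, 5.64% held TATAAA, 3.35% held TGANTCA and 33.9% held GGGCGG. These matches describe the sequence only, and the arrays did not measure binding.

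Levels are log2 signals after subtraction of each array's 75th percentile, and differences are log2 fold changes with their standard error (SE) from one limma fit to all 24 arrays. The Benjamini-Hochberg adjustment of p-values ran over all tested probes, and genes whose adjusted p was under 0.05 are described as called, as having risen or as having fallen. One session scanned the 16 DMSO and G-1 IC50 arrays, and another the 8 arrays of G-1 1 µM, which lay on one slide. The first session had 41.1% to 44.5% of spots well above background, the second 38.0% to 40.7%. Within a duration, session and G-1 1 µM cannot be told apart, whereas comparisons within G-1 1 µM were made in one session. Of 9 astroglial and glioma markers, 7 were well above background on all 24 arrays, among them *VIM*, *GFAP*, *SOX2* and *S100B* itself. *AQP4* and *OLIG2* were not well above background on any array. Of the markers of other cell types, *SYP*, *STMN2*, *MAG*, *PTPRC*, *AIF1*, *PECAM1*, *KRT5*, *KRT14* and *KRT1* were not well above background on any array. The signals come from whole cultures, in which fewer cells of one kind and less RNA per cell cannot be told apart.

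Apart from *S100A5*, all members were well above background on all 24 arrays. *S100A5* was well above background on all 16 DMSO and G-1 IC50 arrays, but with G-1 1 µM on 0 of 4 arrays at 24 h and on 1 of 4 at 72 h. Of 10 other S100 genes on the array, 8 were not well above background on any array, including *S100A1*, *S100A8*, *S100A9* and *S100A14*, which lie in the same stretch of chromosome 1. *S100Z* was measured on 24 arrays and *S100P* on 15. The plot of the members' values by array shows the 4 replicates of each group.

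**Figure D1:**
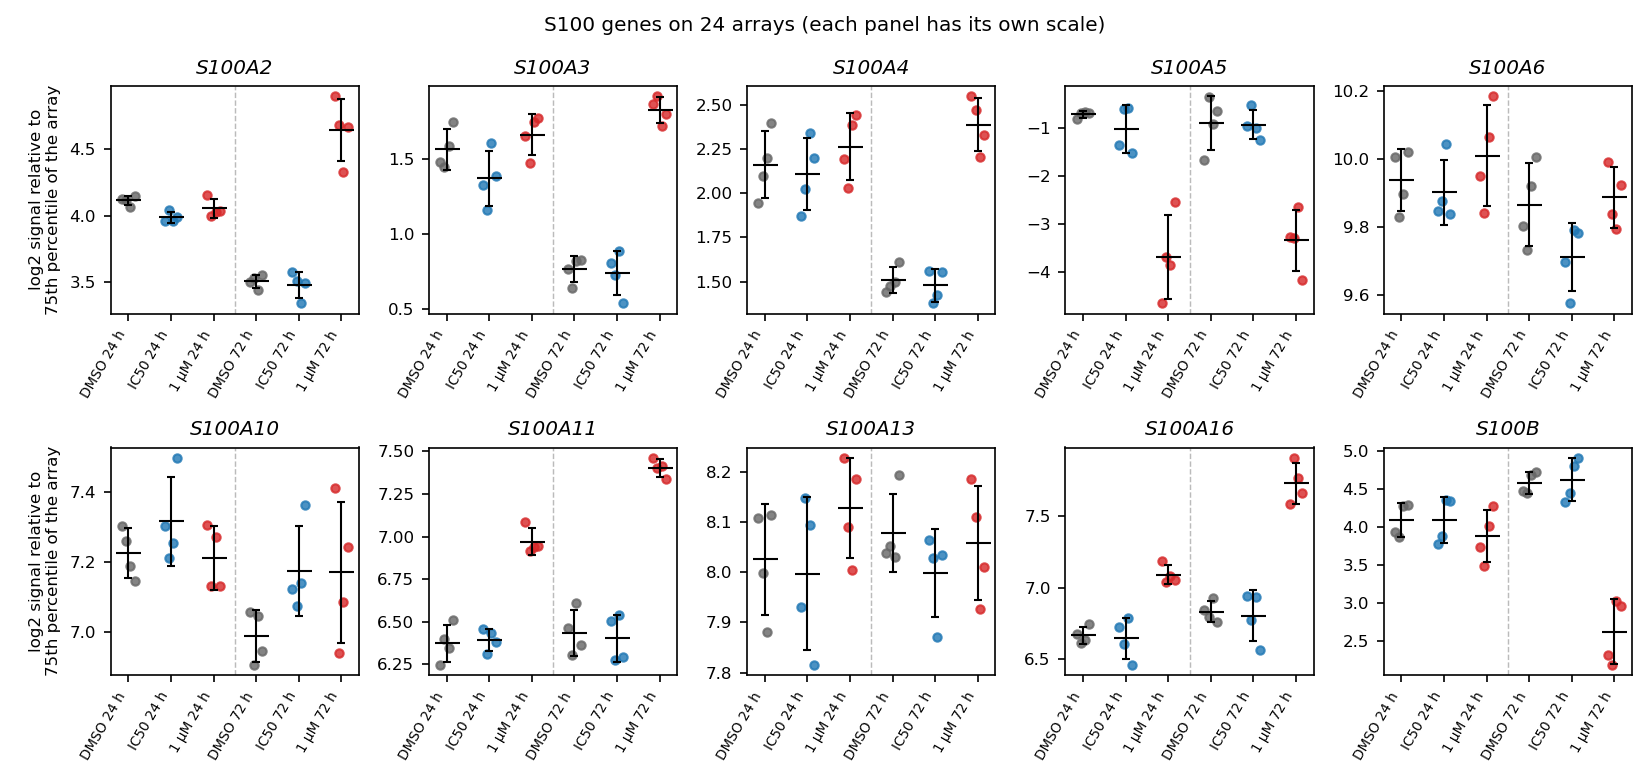
Log2 signal minus the array's 75th percentile for the brightest probe of each of the 10 S100 genes (y axis, a scale of its own in each panel) in the 6 groups (x axis). Points are single arrays in replicate order, dashes and bars the mean ± SD (n = 4). The 4 arrays of G-1 1 µM at 72 h lie above those of DMSO 72 h for *S100A2*, *S100A3*, *S100A4*, *S100A11* and *S100A16* and below them for *S100A5* and *S100B*.

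After 72 h of G-1 1 µM, 5 of the 10 members were higher than in DMSO and 2 were lower. *S100A2* and *S100A3* rose by more than 2-fold, *S100A4*, *S100A11* and *S100A16* rose by less, and *S100B* fell by more than 2-fold. *S100A5* also fell, by more than 2-fold as measured, but only 1 of its 4 treated arrays was well above background and the size of its fall depends on the background treatment. Its probe entered the test only through the DMSO and G-1 IC50 arrays, and the counts of called members include it. *S100A6*, *S100A10* and *S100A13* did not pass the test. The 7 called members make up 70.0% of the list, near the 66.1% of all tested genes that were called in this comparison, so their number is not particular to the S100 genes. Over all tested genes, 35.2% were called higher and 31% lower. The 4 members called with more than a 2-fold change compare with 12.3% of all tested genes, of which 4.92% were higher and 7.42% lower. With normexp background correction and an offset of 50, *S100A3* (0.88) and *S100A5* (-0.78) were under 2-fold and *S100A2* (1.06) and *S100B* (-1.86) were over it. The groups did not overlap for 7 members, and for 58.7% of all tested genes. The median log2 fold change of the members was 0.53, beside 0.03 over all tested genes.

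*S100A2* encodes a largely nuclear S100 protein of epithelial cells that binds p53. Its level after 72 h of DMSO was 3.50, 3.53, 3.44 and 3.55 in the 4 replicates. After 72 h of G-1 1 µM it was 4.90, 4.69, 4.33 and 4.67. All 4 treated arrays were above all 4 DMSO arrays, and the treated arrays were spread more widely. The log2 fold change was 1.14 (SE 0.083, limma, adjusted p = 4.3e-10), which is 2.20-fold higher. At 24 h the arrays of DMSO held 4.13, 4.12, 4.06 and 4.15 and those of G-1 1 µM 4.16, 4.00, 4.03 and 4.03. There the groups overlapped, and the log2 fold change was -0.06 (SE 0.083, limma, adjusted p = 0.613).

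*S100A3*, a zinc- and calcium-binding member known from the hair cuticle, had levels of 0.77, 0.64, 0.82 and 0.83 in DMSO at 72 h. With G-1 1 µM they were 1.87, 1.92, 1.72 and 1.80. The groups did not overlap, and each treated array stood clearly above the highest DMSO array. The log2 fold change was 1.06 (SE 0.096, limma, adjusted p = 8.6e-09), or 2.09-fold. At 24 h the means were 1.57 ± 0.14 in DMSO and 1.66 ± 0.14 in G-1 1 µM (SD, n = 4), and the adjusted p of limma was 0.471.

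*S100A4*, also called metastasin, binds the heavy chain of non-muscle myosin. Its levels in DMSO at 72 h were 1.44, 1.47, 1.50 and 1.61. In G-1 1 µM at 72 h they were 2.55, 2.47, 2.21 and 2.33. Every treated array was above every DMSO array here as well. The log2 fold change was 0.88 (SE 0.111, limma, adjusted p = 8.2e-07), or 1.84-fold, and at 24 h it was 0.10 (limma, adjusted p = 0.513).

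The DMSO level of these 3 neighbours was itself lower at 72 h than at 24 h. From 24 h to 72 h of DMSO, 3 of the 10 members fell and none was called higher, where 3.34% of all tested genes were called, 1.29% higher and 2.05% lower. The 10 include *S100A5*, whose DMSO arrays at 24 h also entered its choice and which was not called here. *S100A2* fell by 0.61 on the log2 scale (limma, adjusted p = 4.1e-04), *S100A3* fell by 0.80 (limma, adjusted p = 9.4e-05) and *S100A4* fell by 0.65 (limma, adjusted p = 0.0028). The levels of the 2 durations did not overlap for any of them. Over all members, the 2 durations of DMSO did not overlap for 6 of 10, and for 12.8% of all tested genes. The call of *S100A4* was lost when only the 8 DMSO arrays were fitted (limma, adjusted p = 0.0525).

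Within G-1 1 µM, where all 8 arrays shared a slide and a session, *S100A2* was 0.59 log2 higher at 72 h than at 24 h (SE 0.083, limma, adjusted p = 1.0e-05). *S100A3* and *S100A4* differed by 0.17 and 0.13 between the durations, with 95% confidence intervals of -0.03 to 0.37 and -0.11 to 0.36, and did not pass the test (limma, adjusted p = 0.184 and 0.395). In G-1 IC50 the mean levels at 24 h and 72 h were 3.99 and 3.48 for *S100A2*, 1.37 and 0.74 for *S100A3* and 2.11 and 1.48 for *S100A4*, a difference that was not tested by itself. The plot along the chromosome sets the change with time in DMSO above the difference between G-1 1 µM and DMSO at 72 h.

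**Figure D2:**
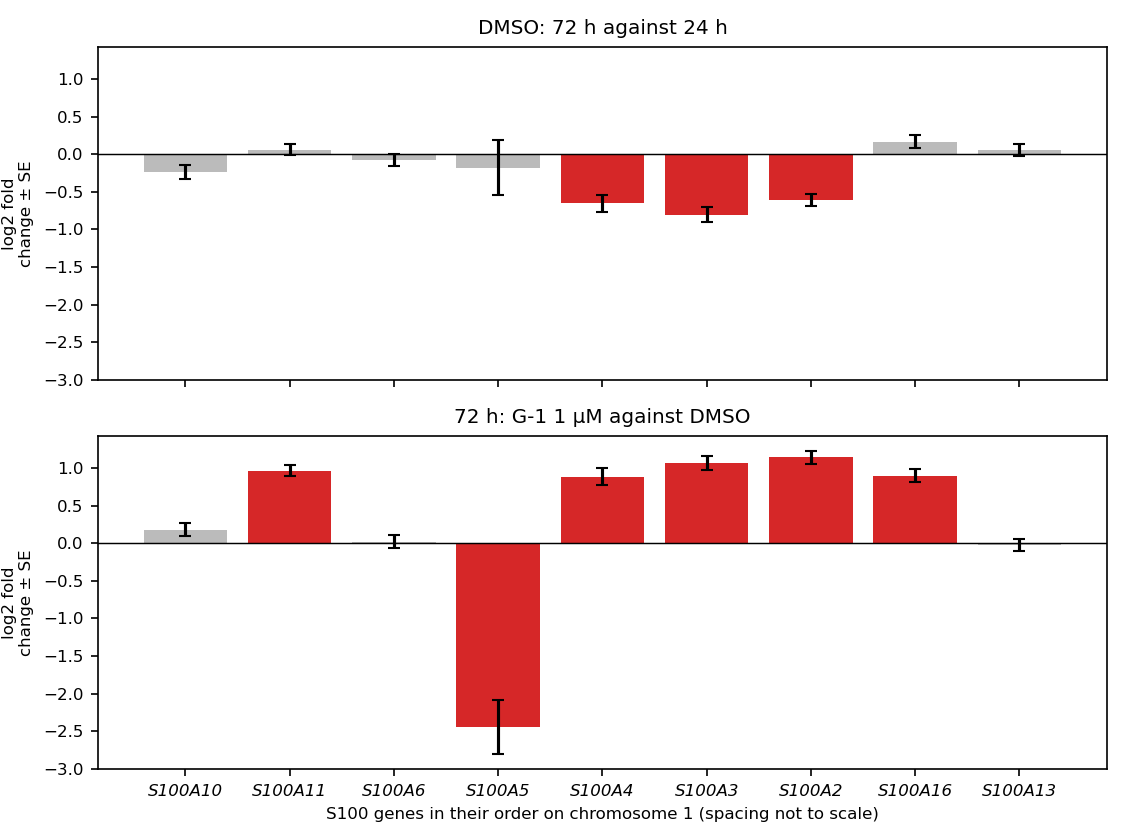
Log2 fold change ± SE (y axis) of the 9 *S100A* genes in their order on chromosome 1 (x axis, spacing not to scale), for DMSO 72 h against DMSO 24 h (top) and G-1 1 µM against DMSO at 72 h (bottom). Red bars passed the test at an adjusted p under 0.05 and grey bars did not. *S100A4*, *S100A3* and *S100A2* are negative in the top panel and positive in the bottom panel, and *S100A5* beside them is drawn at -2.44 in the bottom panel, where 1 of its 4 G-1 1 µM arrays was well above background (-0.78 with normexp).

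*S100A5*, known from olfactory sensory neurons, lies next to *S100A4* and was lower in G-1 1 µM. Its levels at 24 h, which led to its choice, were -0.82, -0.70, -0.68 and -0.70 in DMSO and -4.65, -3.69, -3.86 and -2.55 in G-1 1 µM. None of the treated arrays was well above background, so the difference has only a bound. As measured, and against the lowest signals well above background on those arrays, *S100A5* was at least 3.95-fold lower than in DMSO. Against G-1 IC50 at 24 h it was at least 3.20-fold lower. With normexp background correction, the log2 differences were -0.76 against DMSO and -0.60 against G-1 IC50. The bounds therefore hold only for the signals as measured, and the size is not settled.

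At 72 h, on arrays that the choice did not use, *S100A5* held -1.67, -0.37, -0.92 and -0.66 in DMSO. In G-1 1 µM it held -3.27, -3.30, -2.64 and -4.16, with 1 of the 4 arrays well above background. Every treated array was below every DMSO array. The mean signal was 14.9 in G-1 1 µM and 72.7 in DMSO. As measured, *S100A5* fell by 2.44 on the log2 scale (SE 0.36, limma, adjusted p = 6.8e-06), and with normexp background correction it fell by 0.78 (limma, adjusted p = 8.2e-06). With most treated arrays not well above background, the direction was the same under both and the size is not settled. The probe entered the test through the DMSO and G-1 IC50 arrays, where its signal was high.

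*S100A6* (calcyclin), on the other side of *S100A5*, did not pass the test. It held 9.80, 9.73, 9.92 and 10.01 in DMSO and 9.99, 9.84, 9.79 and 9.92 in G-1 1 µM at 72 h. These groups overlapped throughout, and the log2 fold change of 0.02 had a 95% confidence interval of -0.15 to 0.19 (limma, adjusted p = 0.832). At 24 h it was 0.07 (limma, adjusted p = 0.536).

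Of the members that bind annexins, *S100A11* rose and *S100A10* did not pass the test. *S100A11* (calgizzarin), a partner of annexin A1, was at 6.46, 6.30, 6.61 and 6.37 in DMSO at 72 h. In G-1 1 µM it was at 7.46, 7.40, 7.41 and 7.34. The treated arrays lay close together and above all DMSO arrays, with a log2 fold change of 0.97 (SE 0.077, limma, adjusted p = 1.4e-09). The second, dimmer probe of *S100A11* gave 0.86 (SE 0.108, limma, adjusted p = 7.6e-07). *S100A10* (p11), which no longer responds to calcium and binds annexin A2, was at 7.06, 6.91, 7.05 and 6.95 in DMSO and at 7.41, 6.94, 7.09 and 7.24 in G-1 1 µM at 72 h. The 2 groups overlapped. Its log2 fold change was 0.18, with a 95% confidence interval of -0.01 to 0.37 (limma, adjusted p = 0.0836). Without the second replicate of G-1 1 µM at 72 h it was 0.26 (limma, adjusted p = 0.0163).

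*S100A16*, a widely expressed member, held 6.84, 6.79, 6.93 and 6.76 in DMSO at 72 h and 7.58, 7.91, 7.77 and 7.66 in G-1 1 µM. The groups stood apart, with a log2 fold change of 0.90 (SE 0.088, limma, adjusted p = 2.5e-08). *S100A13*, which takes part in the release of fibroblast growth factor 1, held 8.04, 8.05, 8.03 and 8.19 in DMSO and 8.19, 8.11, 7.93 and 8.01 in G-1 1 µM at 72 h. Its groups overlapped, and the log2 fold change of -0.02 had a 95% confidence interval of -0.19 to 0.15 (limma, adjusted p = 0.842).

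*S100A11* and *S100A16* were also the only members called in G-1 1 µM against DMSO at 24 h, where *S100A5* was not tested. These 2 of 9 members, both higher, compare with 30.6% of all tested genes called and 20% called higher, and the median log2 fold change of the 9 was 0.10, beside 0.04 over all tested genes. The same 2 members had groups that did not overlap, which was so for 30.3% of all tested genes. *S100A11* went from 6.25, 6.40, 6.34 and 6.51 in DMSO to 7.09, 6.91, 6.94 and 6.94 in G-1 1 µM, a log2 fold change of 0.60 (SE 0.077, limma, adjusted p = 2.9e-05). *S100A16* went from 6.67, 6.61, 6.63 and 6.74 to 7.19, 7.04, 7.08 and 7.05, a log2 fold change of 0.43 (SE 0.088, limma, adjusted p = 0.0014). For both genes each treated array was above each DMSO array. Log2 fold changes of the other 7 members lay between -0.21 (*S100B*) and 0.10 (*S100A4*).

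*S100B* was lower in G-1 1 µM. At 72 h its level was 4.48, 4.46, 4.69 and 4.73 in DMSO. In G-1 1 µM it was 2.32, 2.19, 3.03 and 2.96. All treated arrays were below all DMSO arrays by a wide margin, and *S100B* fell by 1.96 on the log2 scale (SE 0.20, limma, adjusted p = 5.2e-08), which is 3.90-fold. At 24 h the levels were 3.93, 3.88, 4.28 and 4.30 in DMSO and 3.74, 3.49, 4.02 and 4.28 in G-1 1 µM. There the groups overlapped, with a log2 fold change of -0.21 and a 95% confidence interval of -0.63 to 0.21 (limma, adjusted p = 0.454). In DMSO, *S100B* was 0.49 log2 higher at 72 h than at 24 h and the 2 durations did not overlap, but it was not called (limma, adjusted p = 0.202, and 0.0032 with the replicate number as a block).

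Other astroglial markers were also lower in G-1 1 µM at 72 h. *GFAP*, an intermediate filament of astrocytes, fell by 2.71 on the log2 scale (limma, adjusted p = 2.5e-07), *SOX2*, a transcription factor of neural precursors, fell by 0.84 (limma, adjusted p = 1.9e-07), and the glutamate transporter *SLC1A3* fell by 0.59 (limma, adjusted p = 8.2e-04). All 7 markers of this list that were tested, *S100B* included, were called lower, where 31% of all tested genes were. The summed level of the 9 markers, relative to the 75th percentile, was between 1530 and 1760 in DMSO and between 1090 and 1250 in G-1 1 µM at 72 h. Among markers of other cell types, the summed level of the neuronal list went from between 6.51 and 9.81 to between 3.00 and 3.49, and that of the oligodendrocyte list from between 6.14 and 7.15 to between 3.75 and 5.02. The immune list went from between 0.469 and 0.578 to between 1.02 and 1.26 and the endothelial list from between 1.88 and 2.12 to between 3.72 and 4.04. *CD14* (1.23) was the one immune marker tested. Of the 3 endothelial markers tested, *KDR* rose by 1.71 and *VWF* fell by 1.70 (limma, adjusted p = 2.0e-09 and 6.5e-09), *CDH5* at -0.77 did not pass the test (limma, adjusted p = 0.0594), and their median was -0.77. The keratinocyte list overlapped between the groups. The part of cell composition in the values of *S100B* was not tested.

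G-1 IC50 called no member at either duration. At 24 h, 0 of 10 members passed the test of limma, where 0.246% of all tested genes did, and 0 of 10 had an unadjusted p under 0.05, where 4.64% did. Log2 fold changes lay between -0.30 (*S100A5*) and 0.09 (*S100A10*), and their 95% confidence intervals reached from -1.05 to 0.45. The widest interval was that of *S100A5*, whose DMSO arrays at 24 h also entered its choice. Without *S100A5* the values lay between -0.20 (*S100A3*) and 0.09. *S100A2* was the one member whose groups did not overlap, at 3.96, 4.04, 3.96 and 3.99 against 4.13, 4.12, 4.06 and 4.15 in DMSO, where 2.76% of all tested genes did not overlap. Its log2 fold change was -0.13 (limma, adjusted p = 0.998).

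At 72 h of G-1 IC50, again 0 of 10 members passed the test of limma, where 0.906% of all tested genes did, and 0 of 10 had an unadjusted p under 0.05, where 9.62% did. Log2 fold changes lay between -0.15 (*S100A6*) and 0.19 (*S100A10*). *S100A10* held 7.12, 7.07, 7.14 and 7.36 against 7.06, 6.91, 7.05 and 6.95 in DMSO. These groups did not overlap, as for 7.55% of all tested genes, and the adjusted p of limma was 0.559. For *S100B* the interval of the difference was -0.38 to 0.46, and for *S100A2* it was -0.20 to 0.15. The plot of fold changes shows these intervals around 0 beside those of G-1 1 µM.

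**Figure D3:**
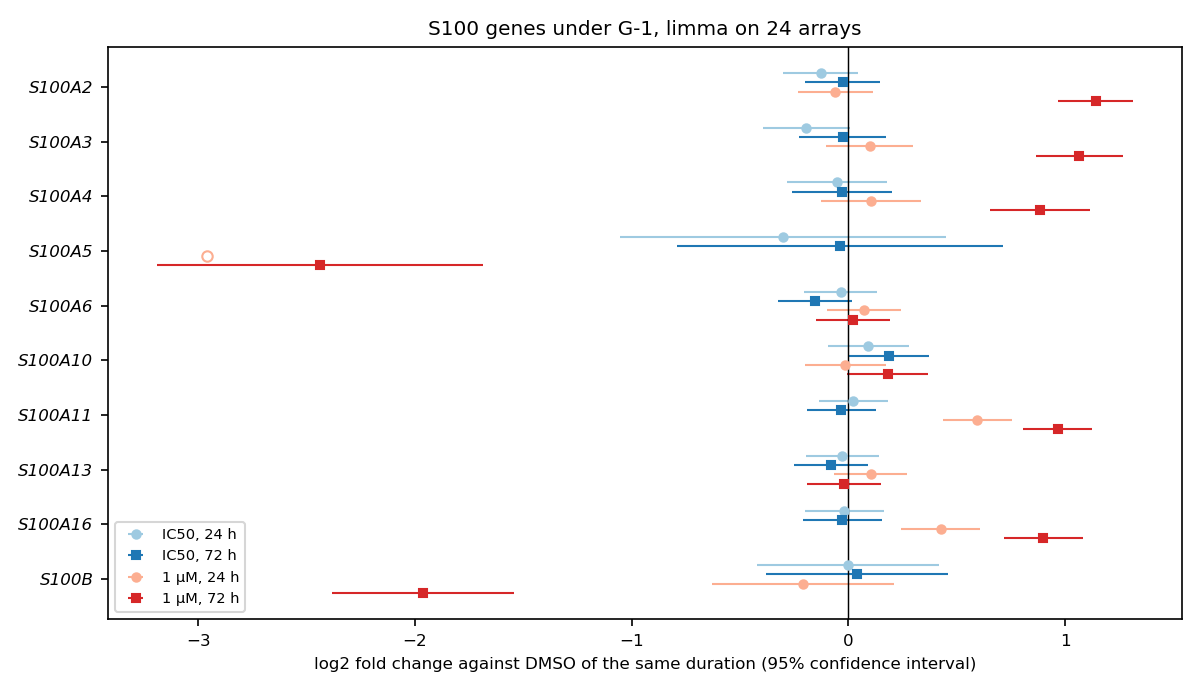
Log2 fold change (x axis) of each S100 gene (y axis) against DMSO of the same duration, with the 95% confidence interval from limma, for G-1 IC50 (blue) and G-1 1 µM (red) at 24 h (light circles) and 72 h (dark squares). The open circle is *S100A5* in G-1 1 µM at 24 h, given without an interval because the gene was picked there. At 72 h of G-1 1 µM, 7 of the 10 intervals exclude 0. The same 7 members were called, where 66.1% of all tested genes were called. The interval of *S100A5* at 72 h of G-1 1 µM holds for the signals as measured. There 1 of its 4 treated arrays was well above background, and with normexp its log2 fold change was -0.78.

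The 2 doses differed at 72 h for the 7 members that also differed from DMSO, where 65.1% of all tested genes were called, 35.9% higher and 29.3% lower. G-1 1 µM was higher than G-1 IC50 by 1.17 for *S100A2*, 1.09 for *S100A3*, 0.91 for *S100A4*, 1.00 for *S100A11* and 0.93 for *S100A16* on the log2 scale. It was lower for *S100B*, by 4.01-fold, and for *S100A5*. Adjusted p in limma was at most 5.9e-07 among the called members other than *S100A5*. The log2 difference of *S100A5* was -2.40 as measured and -0.73 with normexp, with 1 of the 4 G-1 1 µM arrays well above background. Its probe entered the test only through the DMSO and G-1 IC50 arrays, where its signal was high. The comparisons with DMSO and with G-1 IC50 share the G-1 1 µM arrays. Groups did not overlap for 8 of 10 members and for 56.8% of all tested genes, and the eighth was *S100A6*, which differed by 0.18 and was not called (limma, adjusted p = 0.0654). At 24 h, 3 of 9 members were called, where 26.5% of all tested genes were and 18.2% were higher, with 0.57 for *S100A11*, 0.45 for *S100A16* and 0.29 for *S100A3* (limma, adjusted p = 6.6e-05, 0.0012 and 0.0302). Groups did not overlap for *S100A11* and *S100A16*, and for 27.3% of all tested genes. The call of *S100A3* was lost at the same difference of 0.29 in a fit to its 8 arrays alone (limma, adjusted p = 0.0950), and also with normexp, with the methods' t-test after adjustment and without each of 6 of the 8 arrays. It was lost as well when arrays were aligned at the 50th percentile, a change that moved the median of all tested genes in this comparison by -0.16.

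Whether the effect of G-1 1 µM changed with duration was tested as an interaction, the log2 fold change against DMSO at 72 h minus that at 24 h. It was called for 6 of the 9 members tested, with 5 higher and 1 lower, where 34.1% of all tested genes were called, 16.4% higher and 17.7% lower. It was 1.20 for *S100A2* (SE 0.118, limma, adjusted p = 3.7e-07), 0.97 for *S100A3* (adjusted p = 2.3e-05) and 0.78 for *S100A4* (adjusted p = 8.2e-04). For *S100A16* it was 0.47 (adjusted p = 0.0064) and for *S100B* -1.75 (SE 0.286, adjusted p = 1.0e-04). For *S100A11* it was 0.37 (adjusted p = 0.0128) with the brighter probe and 0.34 (adjusted p = 0.0992) with the dimmer one. At the same size of 0.37, the brighter probe was not called with alignment at the 50th percentile (adjusted p = 0.0950) or with no filter on dim probes (adjusted p = 0.0695). *S100A6*, *S100A10* and *S100A13* were not called, at -0.05, 0.19 and -0.12.

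The interaction has different parts in different members. Within G-1 1 µM, from 24 h to 72 h, 4 of the 9 tested members were called, where 43.2% of all tested genes were, 18.9% higher and 24.3% lower. *S100A2*, *S100A11* and *S100A16* rose by 0.59, 0.43 and 0.64 (limma, adjusted p = 1.0e-05, 1.3e-04 and 7.4e-06), and *S100B* fell by 1.26 (SE 0.20, adjusted p = 4.5e-05). The 2 durations did not overlap for the same 4 members, and for 39.4% of all tested genes. For G-1 IC50 the interaction was called for 0 of 10 members in limma, where 0.014% of all tested genes were called, and its values lay between -0.12 and 0.26. The highest was that of *S100A5*, whose DMSO arrays at 24 h also entered its choice. Without *S100A5* the values lay between -0.12 and 0.17 (*S100A3*). Here 0 of 10 members had an unadjusted p under 0.05, where 4.23% of all tested genes did.

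**Figure D4:**
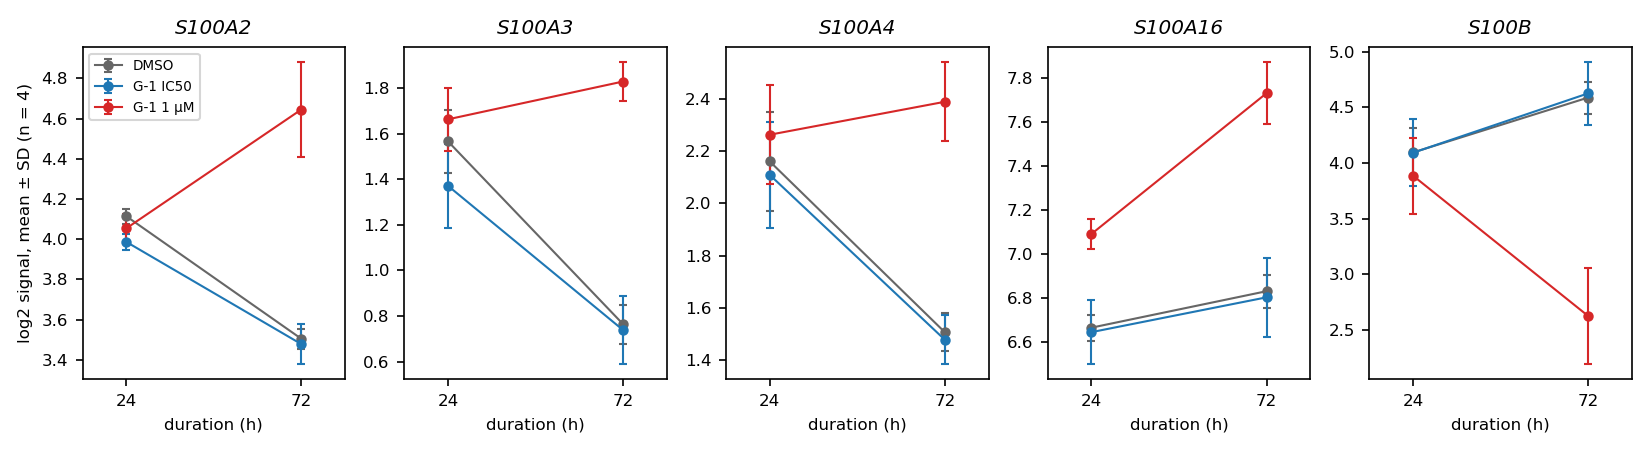
Mean ± SD (n = 4) of the log2 signal minus the array's 75th percentile (y axis, a scale of its own in each panel) at 24 h and 72 h (x axis) in DMSO (grey), G-1 IC50 (blue) and G-1 1 µM (red). The means of *S100A2*, *S100A3* and *S100A4* were lower at 72 h than at 24 h in DMSO and G-1 IC50 and not in G-1 1 µM, *S100A16* was higher in G-1 1 µM than in DMSO at both durations, and *S100B* was 1.26 lower at 72 h than at 24 h in G-1 1 µM.

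Of 26 genes for binding partners and receptors of S100 proteins, 24 were tested. In G-1 1 µM at 72 h, 9 were higher and 3 lower than in DMSO, with a median log2 fold change of 0.05, beside 66.1% called and a median of 0.03 over all tested genes. *TLR4*, a receptor of released S100 proteins, rose by 1.50 (SE 0.094, limma, adjusted p = 5.6e-11) and *MAPT*, the microtubule protein tau, fell by 1.90 (SE 0.134, limma, adjusted p = 2.7e-10). Among the partners of single members, *CACYBP*, which binds *S100A6* protein, rose by 0.80 (limma, adjusted p = 2.6e-06), and *MYH9*, the myosin heavy chain bound by *S100A4* protein, rose by 0.38 (limma, adjusted p = 1.6e-04). *ANXA2* (0.03), *ANXA1* (0.28), *FGF1* (-0.16) and *AGER* (-0.24) did not pass the test, at adjusted p of 0.734, 0.0802, 0.297 and 0.0613 in limma.

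At 24 h of G-1 1 µM, 7 of the 24 partners and receptors were higher and 2 lower than in DMSO, where 30.6% of all tested genes were called. *TLR4* rose by 0.86 (limma, adjusted p = 6.5e-06), *MYH9* by 0.48 (limma, adjusted p = 1.4e-04) and *AGER* by 0.36 (limma, adjusted p = 0.0178). In G-1 IC50, 0 of 24 were called in limma at either duration, where 0.246% of all tested genes were called at 24 h and 0.906% at 72 h.

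Genes with the most similar course over the 24 arrays were looked up for the members with the largest rise and the largest fall at 72 h as measured. With normexp the largest fall was that of *S100B*. For *S100A2* they were *MLKL*, *SNORD80* and *STEAP1B*, with Pearson r of 0.952, 0.946 and 0.946. For *S100A5* they were *KRTAP5-4*, *CCDC177* and *LINC01252*, with r of 0.942, 0.937 and 0.913. The 24 arrays include those by which *S100A5* was picked, and on 7 of the 8 arrays of G-1 1 µM its probe was not well above background. These values describe 24 arrays in 6 groups that share 2 scanning sessions, and 754 genes reached an r over 0.8 with *S100A2* and 188 with *S100A5*. Among the members, *S100A3* and *S100A4* had an r of 0.96 over the 24 arrays and 0.68 over the deviations from the group means, and for *S100A2* and *S100A3* these were 0.89 and 0.06.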

How the data were processed

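RNA of U251 cells was hybridized to 1-colour Agilent SurePrint G3 arrays in 6 groups of 4 independent biological replicates, grouped by sample title. For arrays titled G-1 1 µM 72 h, and for those titled G-1 IC50 24 h, the labels' duration entry gives the other duration. The methods give another DMSO concentration than the labels. For each array, the authors deposited spot intensity values from Feature Extraction (version 12.1.1.1 per the file headers, 10.7.3.1 in the submitters' processing notes), background-subtracted on each array. The authors also deposited a log2 value table, which lay close to log2 intensities minus each array's 75th percentile and minus each probe's median (median difference 0.00189 and largest 0.0106 over 58100 probes, column medians -0.348 to 0.557). No spot was saturated. Outlier spots were left out, spots of 1 probe were averaged, and 83 probes without a value on every array were dropped.

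Log2 intensities minus the 75th percentile of the array were fitted with limma 3.58.1 in R 4.3.3 as 6 group means. A probe was tested where some group had all 4 arrays well above background, which 22970 probes met. The brightest probe stood for a gene. The fit was tested on simulated data. Replicates correlated between 0.990 and 0.996, and the number of arrays limits the precision. Alternatives were quantile or 50th percentile normalization, normexp (on the median signal), the deposited table, other filters and any probe, the comparison's arrays only, slide or replicate number as a block, the methods' t-test, and leaving out each array.

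Members, gene lists and tests were chosen with earlier results of these data known. Named were all members and, from each list, at most 4 genes called with more than a 2-fold change in G-1 1 µM against DMSO at 72 h, with 6 partners named whatever their change, and the 3 genes most like the member with the largest rise and the largest fall. Marker lists were of 6 kinds of cells, with examples named. Same-numbered arrays of G-1 1 µM and DMSO at 24 h, and of G-1 1 µM and G-1 IC50 at 24 h, deviated together (lowest correlations 0.166 and 0.202). In the other comparisons the lowest correlation lay between -0.159 and 0.0528. Promoter windows came from RefSeq (GRCh38.p14), with 9 members matched and *S100B* without an entry in the table used.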

Additional observations from a re-analysis of the deposited data

Results flagged for a closer look

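By the interaction test of limma, the effect of G-1 1 µM differed between 24 h and 72 h for 6 of 9 members. Over all tested genes, 34.1% were called, 16.4% higher and 17.7% lower. The log2 values were 1.20 for *S100A2*, 0.97 for *S100A3*, 0.78 for *S100A4*, 0.37 for *S100A11*, 0.47 for *S100A16* and -1.75 for *S100B*. For *S100A11* the dimmer probe gave 0.34 and was not called (limma, adjusted p = 0.0992). The brighter probe was not called with alignment at a lower percentile (limma, adjusted p = 0.095) or with no filter on dim probes (0.0695). In 2 of the 60 sets of 4 arrays that were examined, 1 array stood apart from the others, by its gap to the nearest array over the whole range. For *S100A11* in G-1 1 µM at 24 h this ratio was 0.842, with replicate 1 at 7.09 and the others between 6.91 and 6.94. For *S100A13* in DMSO at 72 h it was 0.870, with replicate 4 at 8.19 and the others between 8.03 and 8.05. Chance alone picks out about 1 in 20 such sets.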

How the results depend on the processing

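No value changed its direction while called. Over the alternatives that keep all arrays, 992 single values kept their side of the threshold or stayed within the spread between replicates and 18 did not. The methods' t-test without adjustment called 1 member in G-1 IC50 at 24 h (*S100A2*), 1 at 72 h (*S100A10*) and 6 for DMSO 72 h against 24 h, in place of 0, 0 and 3. Of all 14235 tested genes, the same t-test called 647, 1542 and 2608 in these comparisons. Leaving out each array gave 0 to 0 members called in G-1 IC50 at each duration and in its interaction, 2 to 2 in G-1 1 µM at 24 h, 7 to 8 at 72 h, 2 to 3 between the doses at 24 h, 7 to 8 between them at 72 h, 4 to 4 within G-1 1 µM, 3 to 3 within DMSO and 6 to 6 for the interaction of G-1 1 µM.

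With the replicate number as a block, 8 members were called in G-1 1 µM against G-1 IC50 at 72 h, adding *S100A6* (limma, adjusted p = 0.0297), and 4 in DMSO with time, adding *S100B*. The block changed no other call. Over the 60 pairs of same-numbered arrays the correlation of deviations ranged from -0.325 to 0.530, and 15 of 24 arrays were closest to their own number. The slide as a block changed no call where it could be fitted. The t-test was not run for the interactions.

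*S100A3* in G-1 1 µM against G-1 IC50 at 24 h lost its call with the 50th percentile (adjusted p = 0.452), normexp (0.224), the arrays of the comparison only (0.0950), the adjusted t-test (0.133) and without each of 6 single arrays (0.0559 to 0.107). *S100A4* in DMSO with time was lost with the adjusted t-test (0.0826), and the interaction of *S100A11* with the 50th percentile (0.0950) and with no filter on dim probes (0.0695). *S100A6* in G-1 1 µM against G-1 IC50 at 72 h was gained without replicate 3 of G-1 1 µM (0.0492). With normexp, *S100A5* at 24 h of G-1 1 µM was -0.76 against DMSO and -0.60 against G-1 IC50. Aligned at the 50th percentile, *S100A3* was 0.99 higher in G-1 1 µM than in DMSO at 72 h, and the median of all tested genes moved by -0.16 in both comparisons of the doses. Over all tested genes, the alternatives called between 4 and 647 in G-1 IC50 at 24 h (35 as reported), 27 and 1542 at 72 h (129), 2170 and 5483 in G-1 1 µM at 24 h (4351), 2147 and 5106 between the doses at 24 h (3778), 40 and 2608 in DMSO with time (475), and 3006 and 5399 (4859) and 0 and 9 (2) for the interactions of G-1 1 µM and G-1 IC50. The share of higher among called genes at the 75th and the 50th percentile was 88.6% and 100% for 24 h of G-1 IC50 and 47.3% and 66.7% for its longer exposure. For 24 h of G-1 1 µM it was 65.5% and 44.2%. Between the doses it was 68.6% and 19.1% at the shorter duration and 55.1% and 36.8% at 72 h. With quantile normalization and normexp it was 54.3% and 49.7% at 24 h of G-1 1 µM, 55.9% and 47.4% between the doses at that duration, and with normexp 58.5% for 72 h of G-1 IC50 and 26.3%, in place of 38.5%, in DMSO with time. *S100A5* had no value where a probe had to be well above background on each of the 24 arrays. The causes were not tested. Low signal limits *S100A5* and *S100P*.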

Other observations

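Other EF-hand genes were called in both directions in G-1 1 µM. Of 18 tested genes for EF-hand calcium sensors outside the S100 family, 7 were higher and 6 lower in G-1 1 µM than in DMSO at 72 h, beside 66.1% called over all tested genes. *NUCB1*, a calcium-binding protein of the Golgi, fell by 1.00 on the log2 scale (SE 0.108, limma, adjusted p = 9.7e-08).

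Genes of other families flank the S100 genes. Of 9 tested neighbours of the cluster on chromosome 1, 3 were higher and 2 lower in G-1 1 µM at 72 h, none by more than 2-fold, and of 5 neighbours of *S100B* 2 were higher and 1 lower, where 35.2% of all tested genes were called higher and 31% lower. The 8 genes for S100-fused and cornified envelope proteins were not tested, since none was well above background on all arrays of a group. *S100P* had mean levels of -2.99 ± 0.17 in DMSO and -2.30 ± 0.34 in G-1 1 µM at 72 h (SD, n = 4), with 1 of 4 and 3 of 4 arrays well above background, so the size of its difference is not settled. *S100Z* was not called.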
